A study of Mus musculus with 18 samples.

Results

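The genes described here, in mouse skeletal muscle, mostly encode enzymes that remove superoxide and peroxides or couple electrophiles to glutathione. They were chosen by symbol from the muscle RNA-seq table, as those that begin with Gst and a class letter of a, k, m, o, p, t or z, or with Gpx, Prdx or Sod, each followed by a digit, or that begin with Txn. The rule found 58 of the 23420 genes in the table: 21 glutathione S-transferases (Gst), 9 glutathione peroxidases (Gpx), 7 peroxiredoxins (Prdx), 3 superoxide dismutases (Sod) and 18 genes of the thioredoxin (Txn) name, which divide into 9 Txndc, 3 Txnl, 3 Txnrd and 2 Txn genes and Txnip. RNA-seq was made from the hindlimb muscle of female C57BL/6J mice aged 2, 20 or 28 months, with 3 mice and 3 libraries at each age and no other treatment. The same animals gave DNA for the capture of methylated fragments (MBD-seq) from muscle and from spleen T cells, for which the DNA of the 3 mice of an age was pooled. Levels are given as normalized counts, that is, reads per gene divided by a size factor for each library.

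Superoxide dismutases turn superoxide into hydrogen peroxide, which glutathione peroxidases and peroxiredoxins then reduce to water. Glutathione supplies the electrons for the former, thioredoxin for most of the latter, and thioredoxin itself is kept reduced by thioredoxin reductases with NADPH. Glutathione S-transferases join glutathione to electrophiles such as aldehydes from oxidized lipids, and many genes of these families are known targets of NRF2 (Nfe2l2), a transcription factor that binds the antioxidant response element. A shared name does not always mean a shared role, since Txnl4a and Txnl4b are spliceosomal proteins and Txnip is an arrestin-like protein that binds thioredoxin.

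The core of the antioxidant response element, TGACNNNGC, was searched on both strands from 250 bases before to 50 bases after each start in the RefSeq promoter table (GRCm38.p6). It stood in the windows of 9 of the 50 genes that the table held (18%) and of 2466 of 16375 genes of the RNA table (15.1%). Among genes with a mean of at least 10 normalized counts, these were 8 of 39 (20.5%) and 17.2%. The matches in these 8 genes are shown to let them be compared, with the motif in capitals, 8 bases on either side, and each read so that the motif runs 5′ to 3′.
Gsta3: ctcaggcaTGACATTGCatttttct
Gstm5: ccgcccacTGACCACGCggagggcg
Gstm7: tgaagaccTGACAAAGCgaagccaa
Prdx1: acgggggaTGACTCAGCgctttccc
Sod1: cctgagtcTGACCACGCccaccttg
Txndc11: tggaaggcTGACGCGGCcgcgagtg
Txndc5: ctcgccgcTGACGTGGCgctagccg
Txnrd1: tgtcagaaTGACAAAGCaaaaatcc
For genes with several starts, the match may lie before a start other than the outermost one. The matches lie at chr1:21240464-21240472, chr3:107895812-107895820, chr3:107931735-107931743, chr4:116685466-116685474, chr16:90220706-90220714, chr16:11134765-11134773, chr13:38528044-38528052 and chr10:82859114-82859122, in this order. The plus strand carries the motif as printed in Gsta3 and Gstm5, while the minus strand carries it in the others. Gstm7, Txndc11 and Txndc5 are themselves transcribed from the minus strand. The Prdx1 match begins with TGACTCA, which are also the letters that AP-1 factors bind. Of the 8 genes that changed with age, Txnrd1 and Txndc5 held the motif, Gpx1, Gpx3, Gpx7, Gsto1 and Txnl4b did not, and Gsta4 had no window. A match of these letters is a description of the window and not of a bound site.

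The 250 bases before the start are shown for Gpx1 and Gsto1, which had the lowest adjusted p among the genes that fell and among those that rose, and for the neighbours Gstp1 and Gstp2, which are alike in sequence but not in their capture of methylated DNA. CG dinucleotides, the sites of methylation, are in capitals.
Gpx1: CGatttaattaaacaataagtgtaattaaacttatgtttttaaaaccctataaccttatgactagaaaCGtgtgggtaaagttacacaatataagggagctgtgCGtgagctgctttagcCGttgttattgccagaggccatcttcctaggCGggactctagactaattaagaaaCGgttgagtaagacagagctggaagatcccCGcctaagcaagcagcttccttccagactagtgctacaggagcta
Gsto1: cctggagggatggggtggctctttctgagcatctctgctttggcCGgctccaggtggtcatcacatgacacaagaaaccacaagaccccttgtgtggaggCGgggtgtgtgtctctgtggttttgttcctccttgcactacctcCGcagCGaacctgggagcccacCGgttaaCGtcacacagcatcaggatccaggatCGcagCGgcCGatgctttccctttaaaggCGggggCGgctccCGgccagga
Gstp1: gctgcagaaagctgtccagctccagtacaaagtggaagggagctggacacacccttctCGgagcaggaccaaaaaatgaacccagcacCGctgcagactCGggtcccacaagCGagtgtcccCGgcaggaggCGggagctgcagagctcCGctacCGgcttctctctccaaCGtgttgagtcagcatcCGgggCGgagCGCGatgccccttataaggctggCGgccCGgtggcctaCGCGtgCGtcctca
Gstp2: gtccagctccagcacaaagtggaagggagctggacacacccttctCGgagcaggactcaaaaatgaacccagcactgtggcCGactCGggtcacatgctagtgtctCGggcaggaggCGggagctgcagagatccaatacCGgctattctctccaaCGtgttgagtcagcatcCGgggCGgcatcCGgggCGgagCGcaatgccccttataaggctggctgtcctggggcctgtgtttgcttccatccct
These bases span chr9:108338830-108339079 and chr19:47854723-47854972 on the plus strand and chr19:4037913-4038162 and chr19:4042222-4042471 on the minus strand. They hold 7, 12, 18 and 12 CG dinucleotides. The bases before Gsto1 overlap the first exon of Gm30021, a non-coding RNA on the other strand.

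The 9 libraries held 20203833 to 71115244 reads on genes, so that 1 read was worth 0.545 to 2.23 normalized counts. Muscle markers (Acta1, Ckm and others) were high in every library, and none of the 6 T-cell markers in the table reached a mean of 10. The libraries of replicate 3 stood apart at each age: their 10 most abundant genes took 29.6 to 32.5% of the gene reads, against 43.1 to 48.4% in the others. In 2-m replicate 1, the summed level of 7 neutrophil and marrow markers was 5140 normalized counts against 14.9 to 74.2 in the other 8 libraries, that of 6 bone and cartilage markers 1955 against 6.75 to 104, and that of 5 red blood cell markers 1830 against 110 to 413. Mpo, the defining enzyme of neutrophil granules, was at 0 in all 20-m and 28-m libraries. For the genes of the rule, calls lost without this library are given as such, and for the other lists the counts without it are given.

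A mean of at least 10 normalized counts over the 9 libraries was reached by 45 of the 58 genes, and only these were tested. The other 13 were Gpx2, Gpx2-ps1, Gpx5, Gpx6, Gsta1, Gsta2, Gstm3, Gstm6, Gsto2, Gstt4, Prdx6b, Txndc2 and Txndc8. Gpx2, the gastrointestinal glutathione peroxidase, and Txndc8, a testis thioredoxin, had no read in any library. Gstm6 came closest to the threshold from below (mean 9.18) and Gsta3 from above (mean 11.3).

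Per kb of exon, Txnip had the highest level of the 45 genes (8183 ± 898 normalized counts per kb, SD, n = 9), followed by Sod1 (5817 ± 718), the cytosolic dismutase, and Gpx3 (5564 ± 865), the secreted peroxidase of plasma. Prdx3 (4337 ± 303), a mitochondrial peroxiredoxin, came next, and then Gpx4, Prdx1, Gstm1 and Txn2 with means of 3751 to 3900 per kb. Sod1 and Gpx3 could not be ordered, since Sod1 was the higher of them in 5 of 9 libraries, and the same count held between Gpx4 and Prdx1, Prdx1 and Gstm1, and Gstm1 and Txn2. Txnip exceeded Sod1 in 9 of 9 libraries. The ranges of neighbours in the order overlapped for 41 of 44 pairs. Means over 1000 per kb were found for 19 genes and means under 100 per kb for 5, namely Txndc11, Txnrd3, Gstt3, Gstt2 and Gsta3, the last at 7.04 ± 3.28 per kb.

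**Figure D1:**
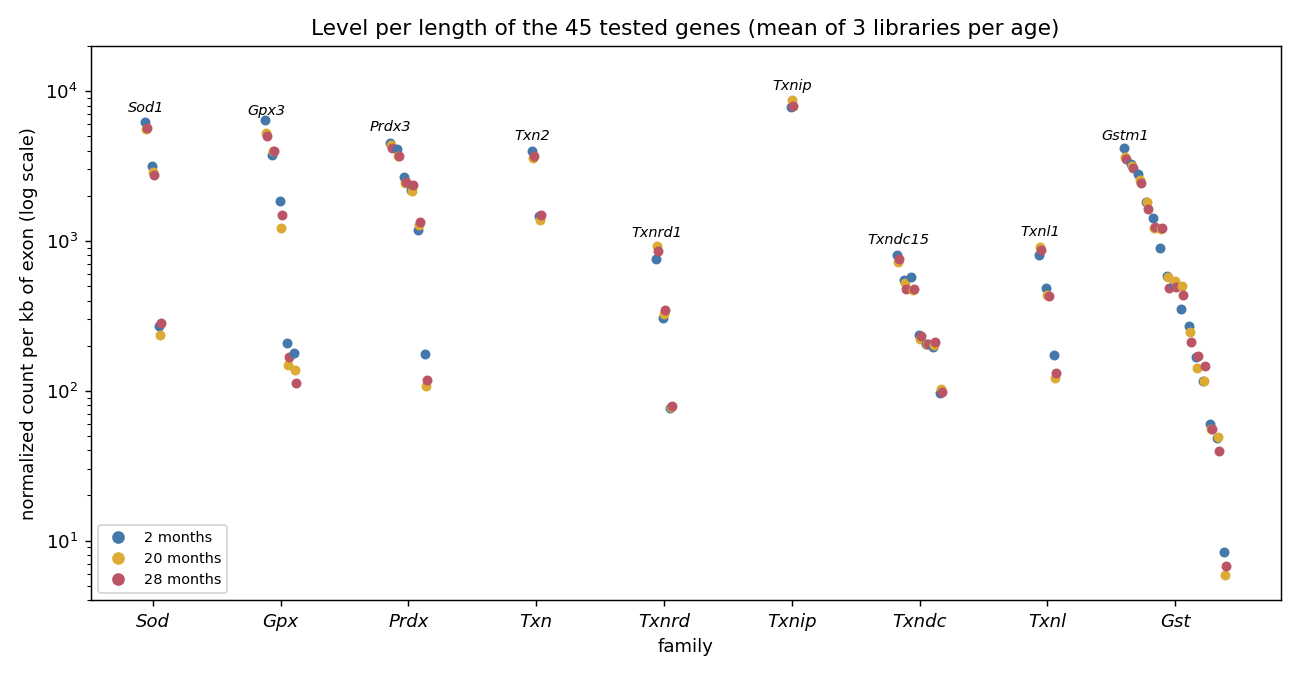
Normalized count per kb of exon (y axis, log scale) of the 45 tested genes by family (x axis), each point being the mean of 3 libraries at 2, 20 or 28 months. The named gene has the highest level of its family, from 761 per kb for Txndc15 to 8183 per kb for Txnip over all 9 libraries, and the points of the 3 ages lie close together for most genes.

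Few of the 45 genes passed the test between ages, and their counts are given beside the shares of all genes. At 20 months 3 genes were higher than at 2 months and 3 were lower at an adjusted p under 0.05 (limma, Benjamini-Hochberg adjustment over 13178 genes), which is 6.67% in each direction. Of all genes tested, 9.42% were higher and 7.13% lower. At 28 months 1 gene was higher and 3 were lower than at 2 months (2.22 and 6.67%), where 7.53 and 6.24% of all genes were. Without 2-m replicate 1 there were 1 higher and 2 lower genes at 20 months (6.35 and 4.29% of all genes) and 0 of either at 28 months (4.64 and 3.76%). With the libraries rescaled to the same sum none of the 45 was called at either age, where 2.69% of all genes were higher and 1.76% lower at 20 months and 2.69 and 1.51% at 28 months. Without the libraries numbered 3 the calls were 1 at 20 months (5.18 and 3.16% of all genes) and 0 at 28 months (3.04 and 2.37%). The shares of the genes described here were near or below those of all genes. With so few calls this is not read as a trait of these genes, and no test of the difference was made. Between 28 and 20 months none of the 45 passed in limma, edgeR or DESeq2 and none had an unadjusted p under 0.05 in any of these. Of all genes, limma called 0.212% higher and 0.167% lower, and 10.6% had an unadjusted p under 0.05. The contrasts with 2 months share the same 3 libraries and are not independent of each other.

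The differences were small for most of the 45 genes. Against 2 months, the absolute log2 fold change had a median of 0.14 at 20 months and 0.16 at 28 months, compared with 0.23 and 0.21 over all genes tested. The 95% interval of the fold change lay within 2-fold in either direction for 43 genes at 20 months and 42 at 28 months (74.2 and 75.4% of all genes). It lay within 1.5-fold for 35 and 32 genes (50.2 and 52.4% of all genes). All genes tested were not matched to the 45 in level, on which the spread can depend. For instance, the SE at 20 months was 0.691 for Gsta3 (mean 11.3) and 0.0658 for Prdx1 (mean 5407). Whether the 45 differ from genes of like level was not tested. Differences below 0 were found for 30 of 45 genes at 20 months and 28 of 45 at 28 months, with median log2 fold changes of -0.11 and -0.11, where 52.1 and 51.5% of all genes lay below 0 with medians of -0.02 and -0.01. The 20-m libraries lay all below the 2-m libraries for 12 genes and all above them for 3 (17.6 and 18.4% of all genes).

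**Figure D2:**
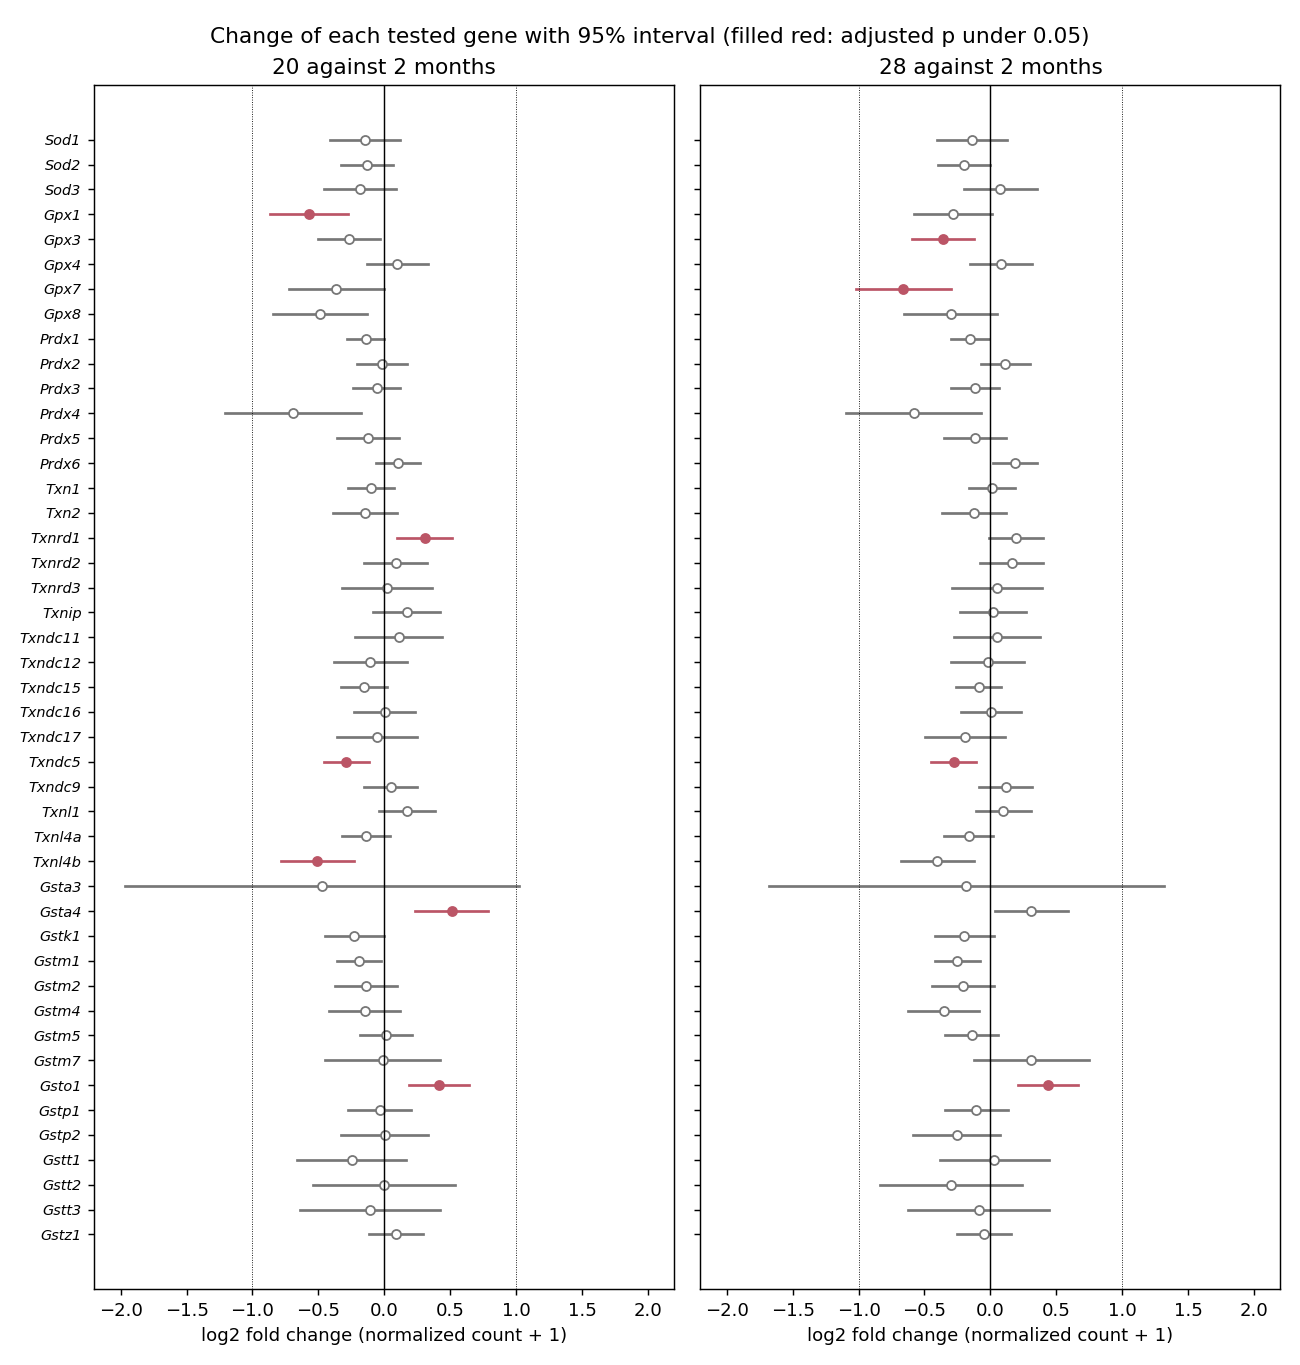
Log2 fold change of the normalized count plus 1 (x axis) of each of the 45 tested genes (y axis) at 20 against 2 months and at 28 against 2 months, with the 95% interval from the fit over all 9 libraries as a line and dotted lines at a 2-fold change. Filled red points mark the 6 and 4 genes with an adjusted p under 0.05, and the interval stayed within 2-fold for 43 and 42 of the 45 genes.

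None of the superoxide dismutases passed the test in any contrast. Sod1 (chr16:90220762-90226333, plus strand) had 4583, 3870 and 3415 normalized counts in the 2-m libraries, 3699, 3886 and 3124 in the 20-m libraries and 3621, 4012 and 3139 in the 28-m libraries. The ages overlapped, and replicate 3 was the lowest at each of them. Its difference on the log2 scale was -0.14 at 20 months (SE 0.123, 95% interval -0.41 to 0.12) and -0.14 at 28 months (-0.40 to 0.13), and both intervals lay within 1.5-fold. Over the family, which includes mitochondrial Sod2 and extracellular Sod3, log2 fold changes ran from -0.18 to -0.13 at 20 months and from -0.20 to 0.08 at 28 months.

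Of the 5 tested glutathione peroxidases, Gpx1 fell at 20 months and Gpx3 and Gpx7 at 28 months. Gpx1 (chr9:108339080-108340342, plus strand) is the cytosolic and mitochondrial selenoenzyme that reduces hydrogen peroxide. It had 2501, 1574 and 1743 normalized counts at 2 months, 1349, 1220 and 1266 at 20 months and 1562, 1563 and 1553 at 28 months. All 20-m libraries were lower than all others, and 2-m replicate 1 was far above the rest. The log2 fold change at 20 against 2 months was -0.57 (SE 0.136, adjusted p = 0.0137 in limma), that is, 1.49-fold lower. Without 2-m replicate 1, the library with the marrow, bone and red blood cell markers, it was -0.37 (adjusted p = 0.0259). The call was lost without 20-m replicate 2 (-0.54, adjusted p = 0.0550), and over 21 alternatives the adjusted p ran from 0.000964 to 0.151. At 28 against 2 months the value was -0.28 (adjusted p = 0.194), which passed only without 2-m replicate 2 (-0.42, adjusted p = 0.0499). At 28 against 20 months it was 0.29 (adjusted p = 0.483).

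Gpx3 (chr11:54902854-54910387, plus strand) had 12045, 9012 and 10105 normalized counts at 2 months, 8416, 8782 and 8463 at 20 months and 7120, 9057 and 8023 at 28 months. The 28-m libraries overlapped the 2-m libraries, since 28-m replicate 2 was above 2-m replicate 2, whereas every 20-m library was below every 2-m library. For 28 months the log2 fold change was -0.36 (SE 0.109, adjusted p = 0.0451 in limma), and for 20 months -0.27 (adjusted p = 0.110). The 20-m value passed only without 2-m replicate 2 (-0.37, adjusted p = 0.037). The exact permutation test for 28 against 2 months gave p = 0.2, where 0.1 is the smallest p that 3 against 3 libraries allow. Over 21 alternatives the adjusted p of the 28-m value ran from 0.0138 to 0.567. The call was kept when 2-m or 28-m replicate 2 was left out and lost without any other library (adjusted p 0.0591 to 0.178), with -0.25 without 2-m replicate 1 and -0.27 without 28-m replicate 1.

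Gpx7 (chr4:108400217-108406713, minus strand), a peroxidase of the endoplasmic reticulum that takes part in oxidative protein folding, had 247, 196 and 207 normalized counts at 2 months, 179, 159 and 165 at 20 months and 137, 151 and 123 at 28 months. No library of one age overlapped another age, and the level was lowest at 28 months. At 28 months the log2 fold change was -0.66 (SE 0.166, adjusted p = 0.0197 in limma), or 1.58-fold lower. At 20 months it was -0.36 (adjusted p = 0.154). The 28-m call was lost without 2-m replicate 1, 28-m replicate 1 or 28-m replicate 3 (adjusted p 0.0577 to 0.0840), with -0.56 without 2-m replicate 1, within a range of 0.0123 to 0.324 over 21 alternatives. Gpx8, its close relative in the same compartment, named here after its values were seen, had log2 fold changes of -0.49 at 20 months (adjusted p = 0.0602, and 0.0402 with the batch term for the libraries numbered 3) and -0.30 at 28 months (adjusted p = 0.254). Gpx4, the peroxidase of membrane lipid hydroperoxides, differed by 0.10 and 0.08 and shares 34.7% of its 50-base stretches with other transcripts, mainly a pseudogene, so its count is less certain.

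No peroxiredoxin passed the test in limma. Prdx3 (chr19:60864066-60874538, minus strand) had 5808, 6723 and 7073 normalized counts at 2 months, 6172, 5954 and 6657 at 20 months and 5979, 5984 and 6047 at 28 months, with overlap between all ages. Its log2 fold changes were -0.06 at 20 months (95% interval -0.24 to 0.12) and -0.12 at 28 months (-0.30 to 0.06). The 6 tested peroxiredoxins ran from -0.69 to 0.10 at 20 months and from -0.58 to 0.18 at 28 months. The lowest of them in both contrasts was Prdx4 (chrX:155323918-155342272, minus strand), the peroxiredoxin of the endoplasmic reticulum, named after its values were seen. It had 198, 134 and 188 normalized counts at 2 months, 97.1, 105 and 116 at 20 months and 135, 81.5 and 134 at 28 months, with adjusted p = 0.0653 and 0.128 in limma. At 20 months it passed in DESeq2 (adjusted p = 0.0368) and in 3 other alternatives, among them without 2-m replicate 2 (-0.87, adjusted p = 0.0345). Prdx1, a cytosolic peroxiredoxin, passed at 20 months under quantile normalization alone (-0.20, adjusted p = 0.0486).

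In the thioredoxin system proper, Txnrd1 rose at 20 months and thioredoxins passed the test at neither age. Txn2 (chr15:77915051-77928994, minus strand), the mitochondrial thioredoxin, had 4687, 5982 and 4708 normalized counts at 2 months, 4642, 4763 and 4420 at 20 months and 4647, 5342 and 4082 at 28 months. The ages overlapped, and the log2 fold changes were -0.14 (95% interval -0.39 to 0.10) and -0.13 (-0.37 to 0.12). Txnrd1 (chr10:82833951-82897724, plus strand), the cytosolic reductase, had 3339, 3096 and 2668 at 2 months, 3837, 3980 and 3412 at 20 months and 3543, 3603 and 3229 at 28 months. Every 20-m library exceeded every 2-m library, while the 28-m libraries overlapped both ages. The log2 fold change at 20 months was 0.31 (SE 0.0958, adjusted p = 0.0460 in limma), or 1.24-fold higher, and at 28 months 0.19 (adjusted p = 0.209). This call was the least stable at 20 months: it was lost in 7 of 9 fits that left out 1 library (adjusted p 0.0511 to 0.160), all but those without 2-m replicate 1 or 20-m replicate 3, and the adjusted p ran from 0.00558 to 0.449 over 21 alternatives. Txnip (chr3:96557957-96561857, plus strand), named for its level after its values were seen, ranged from 18024 to 24571 normalized counts at 2 months, from 23003 to 26189 at 20 months and from 20620 to 24548 at 28 months. Its log2 fold changes were 0.17 (adjusted p = 0.348) and 0.02 (adjusted p = 0.936), and the 4 glucose-responsive genes tested beside it gave no call.

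Among the genes named for a thioredoxin domain, Txndc5 fell at both later ages. Txndc5 (chr13:38500266-38528824, minus strand), a disulfide isomerase of the endoplasmic reticulum, had 1843, 1746 and 1880 normalized counts at 2 months, 1448, 1476 and 1551 at 20 months and 1484, 1591 and 1438 at 28 months. The 2-m libraries were higher than all 6 others, and the later ages overlapped each other. The log2 fold changes were -0.29 at 20 months (SE 0.0788, adjusted p = 0.0256 in limma) and -0.28 at 28 months (SE 0.0788, adjusted p = 0.0349), which are 1.22-fold and 1.21-fold decreases. The calls were lost in 4 and 6 of 9 fits without 1 library (adjusted p 0.0725 to 0.103 and 0.0525 to 0.115), among them those without 2-m replicates 1 or 3 and 20-m replicates 1 or 2, and also those without 28-m replicates 1 or 3 for the 28-m call. The values were -0.28 and -0.27 without 2-m replicate 1. Over 21 alternatives the adjusted p ran from 0.0120 to 0.626 and from 0.0221 to 0.757. Txndc15 (chr13:55714650-55726227, plus strand), the highest of this family per kb, had 1190, 1253 and 1240 at 2 months, 1074, 1105 and 1129 at 20 months and 1129, 1135 and 1197 at 28 months, without a call (adjusted p = 0.204 and 0.498). The 7 tested Txndc genes ran from -0.29 to 0.11 at 20 months and from -0.28 to 0.12 at 28 months.

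Txnl4b (chr8:109565892-109574051, plus strand), a protein of pre-mRNA splicing, had 319, 333 and 328 normalized counts at 2 months, 234, 246 and 209 at 20 months and 247, 249 and 245 at 28 months. The 2-m libraries stood well above the other 6. At 20 months the log2 fold change was -0.51 (SE 0.128, adjusted p = 0.0174 in limma), or 1.42-fold lower. At 28 months it was -0.40 (adjusted p = 0.0542), which passed in edgeR (adjusted p = 0.0487), with the batch term for the libraries numbered 3 and with a minimum mean of 50. The 20-m call was lost without 20-m replicates 1 or 3 (adjusted p = 0.0543 and 0.0648) and its adjusted p ran from 0.00691 to 0.382 over 21 alternatives. Txnl1, a thioredoxin-like protein bound to the proteasome, had the highest level of the Txnl genes per kb. Its normalized counts were 2184, 2152 and 1881 at 2 months, 2111, 2393 and 2497 at 20 months and 2146, 2061 and 2455 at 28 months, with overlap and no call (adjusted p = 0.256 and 0.553).

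Among the 15 tested glutathione S-transferases, Gsta4 rose at 20 months, Gsto1 rose at both later ages, and none fell at an adjusted p under 0.05 in limma. Gsta4 (chr9:78191966-78209349, plus strand), known for its activity toward 4-hydroxynonenal, an aldehyde of lipid peroxidation, had 312, 361 and 336 normalized counts at 2 months, 486, 526 and 432 at 20 months and 450, 435 and 370 at 28 months. All 6 later libraries exceeded the 2-m libraries, though 28-m replicate 3 by little. At 20 months the log2 fold change was 0.51 (SE 0.128, adjusted p = 0.0169 in limma), or 1.43-fold higher. At 28 months it was 0.31 (adjusted p = 0.132). The 20-m call was lost without 2-m replicate 1, 20-m replicate 1 or 20-m replicate 2 (adjusted p 0.0631 to 0.0772), with 0.46 without 2-m replicate 1, within a range of 0.00551 to 0.270 over 21 alternatives.

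Gsto1 (chr19:47854973-47864790, plus strand), an omega-class transferase with thioltransferase activity, had 996, 1151 and 1014 normalized counts at 2 months, 1534, 1218 and 1472 at 20 months and 1461, 1333 and 1487 at 28 months. The 2-m libraries were the lowest 3, with 20-m replicate 2 nearest to them. Log2 fold changes were 0.41 at 20 months (SE 0.104, adjusted p = 0.0180 in limma) and 0.44 at 28 months (SE 0.104, adjusted p = 0.0153), or 1.33-fold and 1.36-fold higher. The 20-m call was lost without 2-m replicates 1 or 3 or 20-m replicates 1 or 3 (adjusted p 0.0504 to 0.0911) and the 28-m call without 2-m replicate 1 or 28-m replicates 1 or 3 (adjusted p 0.0590 to 0.0618). The log2 fold changes were 0.37 and 0.40 without 2-m replicate 1. Over 21 alternatives the adjusted p ran from 0.00333 to 0.359 and from 0.00255 to 0.307. Gsto2, its neighbour on the same strand, had 17 reads in all 9 libraries together.

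The mu-class genes lie in 1 cluster on chromosome 3, from the start of Gstm5 at 107895854 to the end of Gstm4 at 108045179, and differed widely in level. Per kb of exon, Gstm1 had a mean of 3782 normalized counts, Gstm2 2590, Gstm5 1756, Gstm4 243 and Gstm7 127, while Gstm3 and Gstm6 were among the genes too low to test. Gstm1 had 5884, 5420 and 5887 normalized counts at 2 months, 4962, 5301 and 4786 at 20 months and 4670, 5219 and 4571 at 28 months. The 2-m libraries were above all later ones, but the log2 fold changes of -0.19 and -0.25 did not pass (adjusted p = 0.113 and 0.0512 in limma). The 28-m value passed in 7 alternatives (adjusted p 0.0227 to 0.0487), among them DESeq2 (adjusted p = 0.0352), the batch term for the libraries numbered 3 and quantile normalization, but not in edgeR. Quantile normalization also called the 20-m value (adjusted p = 0.0456). Over all tested transferases the log2 fold changes ran from -0.47 to 0.51 at 20 months, with 10 of 15 below 0, and from -0.35 to 0.44 at 28 months, with 11 of 15 below 0. Gstm1, Gstp1 and Gstp2 share 18.9, 33.7 and 54.3% of their 50-base stretches with other transcripts, so part of their reads may have been assigned to a copy or dropped.

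**Figure D3:**
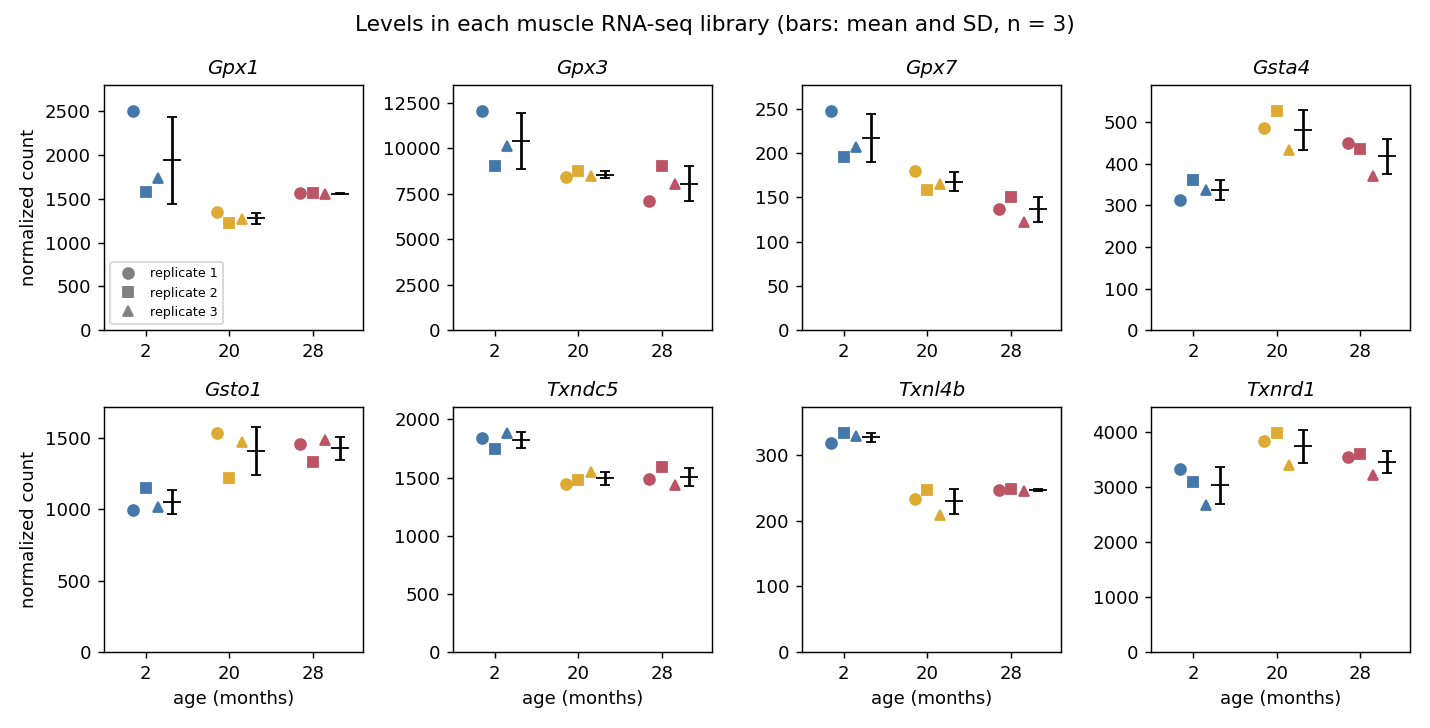
Normalized counts (y axis, from 0) of the 8 genes with an adjusted p under 0.05 in at least 1 contrast, in each library at 2, 20 and 28 months (x axis), with the marker shape giving the replicate number and black bars the mean and SD of 3 libraries. The 2-m libraries of Gsto1, Gsta4 and Txnrd1 lie below all 20-m libraries, those of Gpx1, Txnl4b and Txndc5 lie above them, and 2-m replicate 1 stands apart for Gpx1 at 2501.

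The exact permutation test gave p = 0.1, its smallest possible value, for each of the limma calls above other than that of Gpx3. With 3 against 3 libraries this shows only that the groups do not overlap. The adjusted p of these calls comes from a fit that shares the spread over genes. Markers of other cells moved with age in the same libraries. In bulk tissue, fewer cells of a type and less RNA per cell cannot be told apart. Of 6 fibroblast and matrix markers 3 (Col1a1, Col1a2 and Col3a1) fell at both later ages, and the summed level of the list went from 51086 to 106411 normalized counts at 2 months to 21889 to 24764 at 20 months and 21815 to 29894 at 28 months. Of 7 adipocyte markers 5 fell at 20 months and 2 at 28 months, with sums of 7455 to 11323, 4888 to 5485 and 4761 to 6996. The fibroblast and matrix count was still 3 at each age without 2-m replicate 1, and the adipocyte count was 2 at each. Dcn, Lum and Pdgfra of the fibroblast and matrix list were not called at either age. In the same libraries Gpx1, Gpx3, Gpx7, Txndc5 and Txnl4b fell, and which cells express these genes was not examined. All 7 slow-fibre markers rose at both later ages, from sums of 12890 to 115123 to 163266 to 289784 and 202374 to 255812, beside the rises of Gsta4, Gsto1 and Txnrd1. Of these markers 6 of 7 passed at each age without 2-m replicate 1, the exception being Tnnc1. Of 9 denervation markers 5 rose at 20 months and 8 at 28 months, and 2 rose between 20 and 28 months, when none of the 45 genes passed. These counts were 3, 6 and 1 without 2-m replicate 1. Of the macrophage markers 3 of 7 fell at 20 months (0 without 2-m replicate 1), as did 2 of 5 Schwann cell markers, and 1 of 6 endothelial markers rose at 28 months (0 without 2-m replicate 1). Of the tested marrow markers Mpo, and of the tested bone and cartilage markers 1 of 4, were called lower at both ages. Without 2-m replicate 1 Mpo was not called, and the bone and cartilage marker, Col2a1, was called at 20 months only. No B-cell or red blood cell marker passed with all libraries. Without that library the red blood cell marker Alas2 was called higher at 20 months (1.05, adjusted p = 0.0112) and 28 months (1.48, adjusted p = 0.00157), and the B-cell count was still 0 and the Schwann cell count at 20 months still 2. None of the fibroblast, adipocyte or slow-fibre markers was at 0 in all libraries, and their part in the results for the 45 genes was not tested.

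The genes that make and recycle glutathione, supply NADPH or answer to NRF2 were taken from lists, of which the NRF2 list shares 5 genes with the glutathione list and 2 with the NADPH list. Their counts are to be read against the shares of all genes called, 9.42% higher and 7.13% lower at 20 months and 7.53 and 6.24% at 28 months. Without 2-m replicate 1 these shares were 6.35 and 4.29% at 20 months and 4.64 and 3.76% at 28 months. No called gene of these lists changed direction without 2-m replicate 1 or under another scaling. Of 21 tested genes of the NRF2 list, 8 rose and 1 fell at 20 months, and 4 rose and 2 fell at 28 months, with median log2 fold changes of 0.22 and 0.13. Without 2-m replicate 1, 7 rose and 0 fell at 20 months, and 2 rose and 0 fell at 28 months. Srxn1, the enzyme that repairs overoxidized peroxiredoxins, rose by 0.81 at 20 months (SE 0.0829, adjusted p = 6.57e-05 in limma) and 1.03 at 28 months (adjusted p = 1.08e-05), from 793 ± 50.6 normalized counts (SD, n = 3) to 1392 ± 24.3 and 1617 ± 58.0. Nqo1, a quinone reductase, rose by 1.05 and 0.86 on the log2 scale (adjusted p = 5.18e-05 and 0.000185). Bach1, a repressor of the same sites, rose by 0.63 at 20 months (adjusted p = 0.00512), as did Maff, a small partner protein, by 1.13 (adjusted p = 0.00806). Nfe2l2 itself rose by 0.60 and 0.42 (adjusted p = 0.00809 and 0.0492), of which the 28-m call was lost without 2-m replicate 1 (adjusted p = 0.149), and Keap1, its inhibitor, had values of -0.13 and -0.14 (adjusted p = 0.296 and 0.268). The genes of the list that fell were G6pdx at 20 months and Me1 and Osgin1 at 28 months, of which G6pdx and Me1 encode enzymes that supply NADPH, and none of these passed without 2-m replicate 1.

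**Figure D4:**
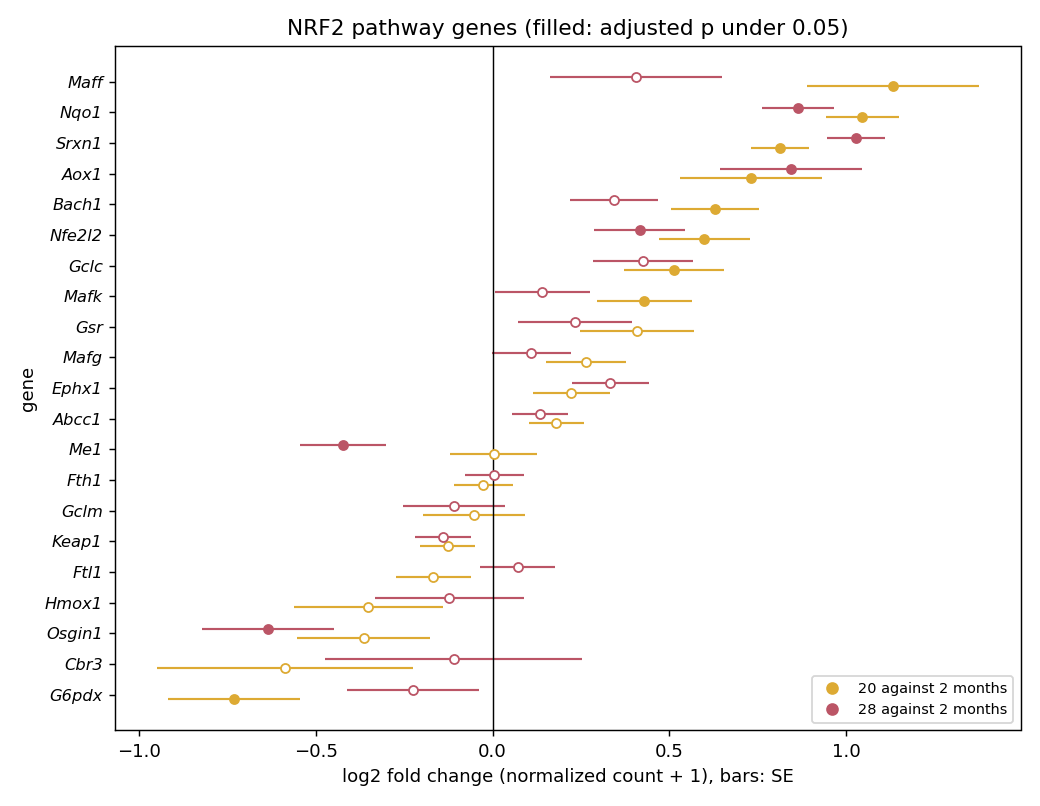
Log2 fold change of the normalized count plus 1 (x axis) of the 21 tested genes of the NRF2 list (y axis) at 20 and 28 against 2 months, with the SE of the fit as bars and filled points for an adjusted p under 0.05. Srxn1 and Nqo1 rose at both ages, by 0.81 to 1.05, whereas Keap1 lay at -0.13 and -0.14.

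In the glutathione list of 19 tested genes, 1 rose and 1 fell at each later age, but none at 28 months without 2-m replicate 1. Gclc, the catalytic subunit of the first enzyme of glutathione synthesis, rose by 0.51 at 20 months (adjusted p = 0.0273), and Glrx, glutaredoxin, fell by 0.51 (adjusted p = 0.00813). The Gclc call was lost without 2-m replicate 1 (0.53, adjusted p = 0.0631), where Gsr, glutathione reductase, was called in its place (adjusted p = 0.0332). At 28 months Glrx2 fell by 0.34 (adjusted p = 0.0461) and Ggt6 was called higher at a mean of 1.95 ± 1.82 normalized counts at 2 months and 16.8 ± 9.06 at 28 months. Ggt6 reached the minimum mean only through the later ages, so its call is weak. Of 13 genes of NADPH supply, 2 rose and 4 fell at 20 months and 2 rose and 3 fell at 28 months. At each of these ages 2 rose and 1 fell without 2-m replicate 1. Nnt and Idh2, of mitochondria, rose at 20 months by 1.03 and 0.89 (adjusted p = 0.00140 and 0.00428) and at 28 months by 1.10 and 0.87 (adjusted p = 0.000900 and 0.00551). Of the pentose phosphate pathway, Tkt fell at 20 months from a mean of 1271 to 422 normalized counts (adjusted p = 0.00140), also without 2-m replicate 1 (adjusted p = 0.00573). Taldo1 fell by 0.34 (adjusted p = 0.0157), a call lost without that library (adjusted p = 0.0651). C57BL/6J mice are known to lack part of Nnt, and the count does not show which part was read.

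Among 20 other genes of peroxide, metal and methionine sulfoxide defence, 2 rose and 2 fell at each later age. Over all genes, 9.42% were higher and 7.13% lower at 20 months, and 7.53 and 6.24% at 28 months. Without 2-m replicate 1 the counts were 2 and 1 at 20 months (6.35 and 4.29% of all genes) and 1 and 2 at 28 months (4.64 and 3.76%). Catalase (Cat) rose by 0.71 and 0.50 (adjusted p = 0.00205 and 0.0156), from 2914 ± 332 to 4791 ± 763 and 4128 ± 378 normalized counts. Its 28-m call was lost without 2-m replicate 1 (0.41, adjusted p = 0.0700). Msrb1, a selenoenzyme that repairs methionine sulfoxide, fell by 0.67 and 0.83 (adjusted p = 0.00701 and 0.00209), and Park7 fell by 0.33 and 0.39 (adjusted p = 0.0222 and 0.0100), the former not without 2-m replicate 1 (adjusted p = 0.0827). Ucp3 was higher at 20 months (1.83, adjusted p = 0.000496) and lower at 28 than at 20 months (-1.69, adjusted p = 0.0114). Of 12 genes of superoxide and peroxide sources, 3 rose and 1 fell at 20 months and 2 rose at 28 months, beside the same shares of all genes. None of the 12 passed without 2-m replicate 1. Xdh rose by 0.51 and 0.56 (adjusted p = 0.0201 and 0.0138) and Nox4 by 0.89 and 0.92 (adjusted p = 0.0227 and 0.0212), while at 20 months Maob rose by 0.50 (adjusted p = 0.0241) and Cyba fell by 0.52 (adjusted p = 0.0430).

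In the MBD-seq table a promoter was given the mean normalized count of the 500-bp bins that its window touched, for 49 of the 58 genes. In muscle a single read was worth 0.910, 0.842 and 0.637 normalized counts in order of age. Since the mice of an age were pooled, ages are compared without a test. In 2-m muscle 36 of 49 promoters (73.5%) were under 10, as were 70.9% of 16234 genes. In muscle the 49 promoters had medians of 3.18, 3.79 and 6.21 in order of age, and all genes 2.73, 2.95 and 7.01. The median log2 change from 2 to 28 months in muscle was 0.70, with 34 promoters up and 15 down, and 0.68 over all genes. It was 0.20 when bins within 1000 bases of the start were taken and 1.14 when the libraries were rescaled to the same sum. In T cells the 49 promoters had medians of 2.03, 3.65 and 3.30, and all genes 3.05, 3.65 and 3.97.

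By median, the promoters of the tested genes had less captured DNA than those of the genes too low to test. The former, 38 in all, had a median of 1.82 in 2-m muscle with 17.5 CG dinucleotides per window, and the latter, 11 in all, had 15.8 with 3. Over all genes these medians were 1.82 and 7.73, with 20 and 4 CG dinucleotides. Gpx5, Txndc2 and Txndc8, genes of the male reproductive tract, stood at 49.1, 38.0 and 36.4 in 2-m muscle. Of the genes that changed with age, Gsto1 had 0.910, 0 and 2.87 in muscle, in the same order, Txnl4b 0, 0 and 5.74, Gpx1 4.09, 5.05 and 4.14, Gpx7 4.55, 6.74 and 7.01, Txnrd1 6.06, 7.30 and 8.18, and Txndc5 10.2, 7.37 and 6.21. Gpx3 alone of them was above 20 at 2 months, with 24.6, 10.9 and 20.4, and 33.5, 59.6 and 59.5 in T cells.

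Gstp1 and Gstp2, whose upstream bases are printed above, lie next to each other on chromosome 19. The Gstp1 promoter had 6.37, 5.47 and 9.56 normalized counts in muscle and 5.08, 3.65 and 6.61 in T cells, in order of age. That of Gstp2 had 62.8, 58.9 and 17.8 in muscle and 122, 183 and 148 in T cells, the highest of the 49 promoters in 2-m and 20-m muscle and at each age in T cells. Their RNA had means of 2415, 2361 and 2263 normalized counts for Gstp1 and 437, 435 and 366 for Gstp2, with no call. Since the upstream bases of the pair are alike, captured reads may have been placed at the wrong copy, which was not examined. Prdx4, on the X chromosome, had 45.5, 25.7 and 14.3 in muscle and 46.7, 67.5 and 40.3 in T cells. Of the tested genes, 7 had a promoter over 10 in 2-m muscle and all 7 were lower at 28 months, as were 81.6% of such genes in the table. Of the 31 others 29 were higher at 28 months, as were 85.9%. Both groups were chosen by the same 2-m value that enters the change, so part of these counts follows from that choice. In T cells 3 of 10 such promoters were lower and 13 of 28 others were higher (30.3 and 41.8% of all tested genes).

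**Figure D5:**
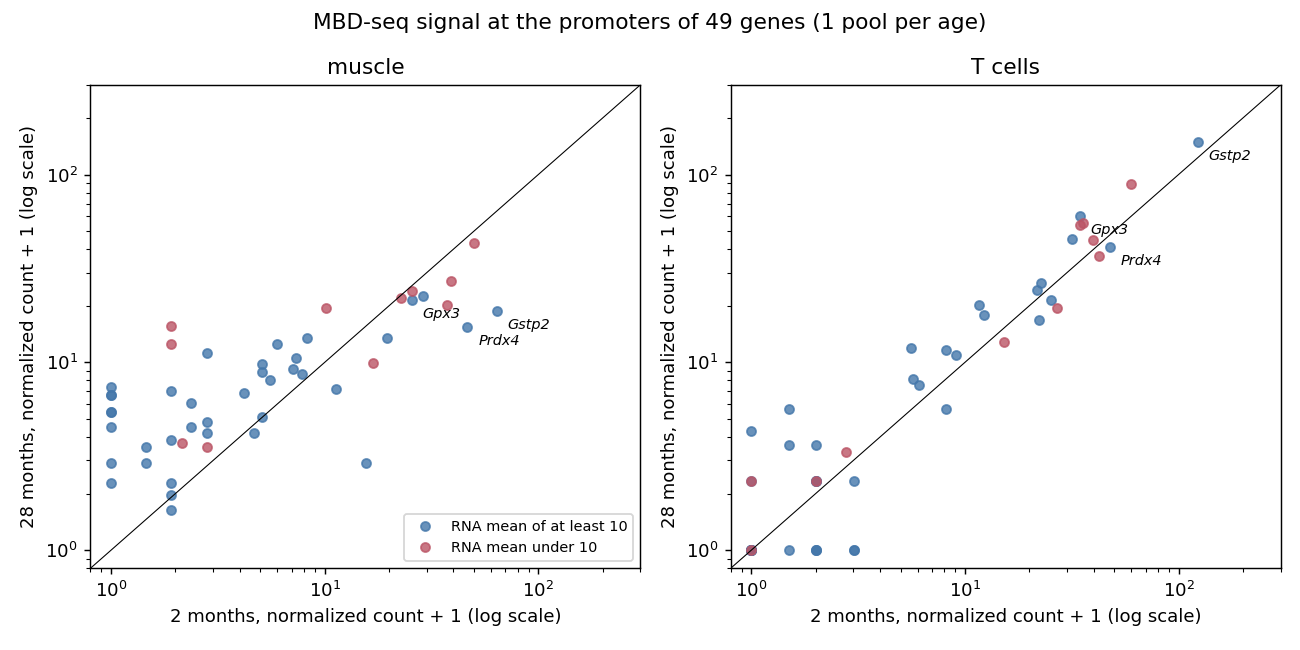
MBD-seq signal at the promoters of 49 genes in 28-m (y axis) against 2-m (x axis) muscle and T cells, as the normalized count plus 1 on log scales, with the diagonal marking equal values. Blue points are genes tested for RNA and red points those with a mean under 10; in muscle the promoters of Gstp2 and Prdx4 lie below the diagonal (62.8 to 17.8 and 45.5 to 14.3), and in T cells Gstp2 lies above it (122 to 148).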

How the data were processed

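Muscle RNA-seq of 9 mice and pooled MBD-seq of muscle and T cells were analysed. The deposited values are a signal made by the authors, namely reads per gene (HTSeq) or per 500-bp bin (bedtools) over a DESeq2 size factor for each library, after trimming with Trim Galore and alignment to mm10. MBD-seq reads were aligned with Bowtie2. For RNA-seq, the submitters' processing notes list TopHat whereas the methods name Hisat2, which can differ in how spliced reads and reads of near-identical copies are placed. All nonzero values (100%, within a tolerance of 0.001) were whole multiples of 1 step per library, so whole reads were recovered. Whether reads were counted by strand is not given in the sources used here, so overlapping antisense reads cannot be told apart.

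Log2 of the normalized count plus 1 was fitted with limma 3.58.1 (limma-trend, R 4.3.3) over all 9 libraries with age as the only term, for 13178 genes with a mean of at least 10 normalized counts. The 5 summary rows of the counting tool were left out. Benjamini-Hochberg adjustment was made over all genes tested, with a threshold of 0.05. Each replicate is 1 mouse. Exact permutation tests were two-sided. Alternatives were pseudocounts, filters, scalings, the replicate block, only the 2 groups compared, each library left out, and edgeR 4.0.16 and DESeq2 1.42.0 on recovered reads; a batch term for, and the removal of, the libraries numbered 3 were chosen after seeing the data. The fit was also run on simulated counts with the same dispersion for every gene and no outlying library, and no result here rests on that run.

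Gene positions and exon lengths are those of RefSeq on GRCm38.p6. Sharing of 50-base stretches was counted over GENCODE vM21 transcripts, and promoter sequences came from the RefSeq promoter table, in which 50 of the 58 genes were found. The MBD-seq columns name a tissue and an age but not a round of capture. Which round the muscle columns hold, or whether they hold both, is thus not known, and the rounds were not analysed apart. Named genes are those with an adjusted p under 0.05 in at least 1 contrast and the highest gene per kb of each family, and for the pathway lists at most 4 called genes by the smallest adjusted p, and Nfe2l2 and Keap1, since the list of glucose-responsive genes had none. Gpx8, Prdx1, Prdx4, Txnip and the promoters singled out were named after their values were seen, as were G6pdx, Gsr, Me1, Osgin1, Tnnc1 and Alas2. The genes, the lists of pathways and cell markers, and the tests were chosen with earlier results of these data known.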

Additional observations from a re-analysis of the deposited data

How the results depend on the processing

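The 6 calls at 20 against 2 months and the 4 at 28 against 2 months were both 0 when the libraries were rescaled to the same sum (the cause was not tested). That scaling took the calls over all genes from 2181 to 586 at 20 months and from 1814 to 554 at 28 months. Without all libraries numbered 3, 1 and 0 calls were left, with fewer samples, and with a batch term for them there were 7 and 6. With only the 2 groups compared in the fit, 28 against 2 months gave 2. Leaving out 1 library at a time gave 1 to 7 calls at 20 months and 0 to 6 at 28 months, where 1081 to 2231 and 963 to 1846 of all genes were called. At 20 months there were 3 calls without 2-m replicate 1, 3 without 2-m replicate 3, 1 without 20-m replicate 1 and 2 without 20-m replicate 2. At 28 months there were 0 without 2-m replicate 1, 28-m replicate 1 or 28-m replicate 3, and 2 without 2-m replicate 3 or 20-m replicates 1 or 2. Quantile normalization gave 2 higher and 5 lower genes at 20 months in place of 3 and 3. edgeR gave 6 and 4 calls, and DESeq2 7 and 5. Between 28 and 20 months every alternative gave 0. Of 210 single-gene values under the alternatives, 143 kept their call, 67 lost it and 0 changed direction. The scalings tried moved the median of all genes by less than 0.1 (log2).

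With the replicate block there were 8 calls at 20 months, 5 at 28 months and 0 between 28 and 20 months, and over all genes 3000 at 20 months and 2529 at 28 months. The numbers do not pair the mice by this check, as only the libraries numbered 3 correlated above 0.1 at all ages in their deviations from the group means (r of 0.109 to 0.161 over genes). The median promoter change in MBD-seq at 28 against 2 months in muscle, 0.70, ran from 0.20 with bins within 1000 bases of the start to 1.14 with the libraries rescaled to the same sum. The medians at 20 months in muscle ran from -0.14 to 0 and those in T cells from 0 to 0.26 at 20 months and from 0 to 0.24 at 28 months. With 1 pool per age there is no replicate spread to set these moves against.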
